A study of Mus musculus with 6 samples.

Results

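Most of the genes described here encode protein subunits of the mitochondrial ribosome or proteins that carry precursors through the mitochondrial membranes. They are the 98 of 23284 gene symbols whose names begin with Mrpl or Mrps and a digit, or with Timm or Tomm. They were picked by name, with earlier results of these data already known, and comprise 47 Mrpl, 29 Mrps, 12 Timm and 10 Tomm genes. Mrps36, a subunit of oxoglutarate dehydrogenase, and Tomm34, a cytosolic co-chaperone, carry such names and are counted among them. The samples were fully grown germinal vesicle oocytes of the mouse, arrested in the prophase before meiosis resumes, on a mixed C57BL/6-129 background. Females were 4 to 6 weeks old and had received 5 IU of the follicle-stimulating gonadotrophin PMSG 48 h earlier. The oocytes, whose RNA was sequenced, were labelled Lsd1 KO or Control, with 3 biological replicates of each and 100 oocytes per sample, lysed directly and amplified before library preparation. Lsd1 is another name of Kdm1a, a histone lysine demethylase. The promoter that drives the deletion, the exons removed and the Control alleles are not given in the labels used here.

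Mitochondria hold their own ribosome, which translates the few proteins encoded by mitochondrial DNA, all of them subunits of oxidative phosphorylation. Its RNAs come from mitochondrial DNA, but every one of its proteins is encoded in the nucleus, made in the cytosol and imported. The large subunit is called 39S and the small subunit 28S, and each combines homologues of bacterial ribosomal proteins with proteins that bacteria lack. Precursors cross the outer membrane through the TOM complex, in which Tomm20, Tomm22 and Tomm70a are receptors and Tomm40 is the channel. The TIM23 complex then passes most of them into the matrix, and the TIM22 complex, served by small chaperones of the intermembrane space, inserts carrier proteins into the inner membrane. The egg supplies the embryo's mitochondria, and the fully grown oocyte stores transcripts for use after transcription has stopped.

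Libraries held 10735422 to 13035045 counts in genes, of which the 98 genes took 0.437% to 0.543%. Kdm1a stood at 3.77, 2.80 and 3.23 CPM (counts scaled to a common library total with TMM factors) in Lsd1 KO replicates 1 to 3 and at 73.9, 72.5 and 44.4 in Control. All 10 oocyte markers were present in every library. Their summed level was 35130, 39250 and 38520 CPM in Lsd1 KO and 28510, 28440 and 23880 in Control, without overlap. By edgeR 2 were higher and 0 lower (2 and 2 at an unadjusted p under 0.05). Gdf9 was at 14480, 16950 and 15240 CPM against 5569, 5586 and 7015 (log2 fold change 1.36, edgeR adjusted p = 0.0005). Oosp1 had a log2 fold change of 0.82 (adjusted p = 0.0084). Signs were split, 5 positive and 5 negative, with a median of 0.03. Markers of other cells were also detected. The summed level of the 13 granulosa and cumulus markers was 421 to 479 CPM in Lsd1 KO and 134 to 164 in Control, and 3 of the 11 tested were higher and 1 was lower. Most of that gap lay in Cyp19a1 (328, 405 and 239 CPM against 28.6, 32.5 and 49.2). The other 12 markers summed to 102, 74.8 and 182 CPM in Lsd1 KO and 105, 102 and 115 in Control, which overlapped. That sum includes Nr5a2, the marker that was lower (25.7, 27.1 and 33.2 CPM against 67.5, 73.0 and 67.7, log2 fold change -1.28). Of the 11 tested, 4 were called (36.4%, against 21.3% of all genes). Among the 11, 9 had positive and 2 negative log2 fold changes, with a median of 1.35. Inha (1.36, edgeR adjusted p = 0.0430) and Gja1 (1.90, 0.0221) were also higher, each with overlapping libraries. The 17 blood and immune markers summed to 257, 48.3 and 206 CPM in Lsd1 KO and 62.6, 28.8 and 90.1 in Control, with overlapping libraries. Of 12 tested 2 were higher (16.7%, against 21.3% of all genes), and 5 at an unadjusted p under 0.05. All 12 had positive log2 fold changes, with a median of 1.78 and a median standard error of 0.99. Hba-a1, Hba-a2 and Hbb-b1 were at 0 in all 6 libraries. The 6 theca and luteal markers summed to 11.2 to 42.7 CPM against 8.85 to 14.4, also overlapping, with Insl3 at 0 and 0 of 3 tested called by edgeR (1 higher at an unadjusted p under 0.05; 1 by DESeq2, 0 by limma-voom).

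Promoter sequences of these genes carried more matches to the ETS motif than promoters at large. ETS-family factors, among them the respiratory factor GABP (also called NRF2), bind the core CCGGAAG, and NRF1, another activator of nuclear genes for mitochondria, binds GCGCA, any base and GCGC. Both strands of the 250 bases before each RefSeq start were searched (GRCm38.p6, a different build from that of the counts), and 87 of the 98 genes matched a RefSeq symbol, with 95 windows. The ETS letters were in 26.3% of these windows and in 6.91% of all 32851 windows. That background was not limited to genes expressed in these oocytes. Whether these genes differ from other expressed genes in this was not tested. The NRF1 letters were in 10.5% and 3.74%, and those of YY1, AANATGGCG, in 2.11% and 1.12%. The 3 motifs do not contain one another. The sequences below are the ETS matches of 3 genes that passed the expression test and of 3 that did not, each written in the direction of its gene, with the motif, or its reverse complement CTTCCGG, in capitals.
Mrpl43, chr19:45006480-45006509, minus strand: tcgcggtgactCCGGAAGcaaaactctcca
Mrpl43, chr19:45006443-45006472, minus strand: catgccacaaccccggaaCCGGAAGtcacc
Mrps18c, chr5:100798592-100798621, plus strand: gggtcacgtgaCTTCCGGcccgggaagcgc
Mrpl48, chr7:100583146-100583175, minus strand: ggttttaaaaaCTTCCGGaaccaagatgct
Timm8b, chr9:50603871-50603900, plus strand: ggcaacctgaagcgtgaaCCGGAAGgcagg
Tomm22, chr15:79670813-79670842, plus strand: ccggctcgcttCCGGAAGacgctctgtcca
Mrpl34, chr8:71464878-71464907, plus strand: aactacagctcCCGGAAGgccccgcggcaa
The matches of Mrpl43 began 56 and 12 bases before its start, in a window shared with Twnk, and that of Mrps18c began 156 bases before. The match of Mrpl48 lies before a start inside the gene, and 3 other windows of Mrpl48 held none. The Tomm22 match reads as the motif on both strands, because the letters overlap their own reverse complement. A match says only that these letters are present.

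For most mitochondrial ribosome and import transcripts the estimated difference between Lsd1 KO and Control oocytes was small. In the main edgeR fit every estimate was under 2-fold. Summed over all 98 genes the level was 4646, 4458 and 5247 CPM in Lsd1 KO replicates 1 to 3 and 5319, 4323 and 4688 CPM in Control. The groups overlapped, and the means were 4784 ± 412 and 4776 ± 504 (SD, n = 3). Of the 96 genes with enough counts to test, 5 were higher in Lsd1 KO and 2 were lower at an adjusted p under 0.05 (edgeR quasi-likelihood test, Benjamini-Hochberg over 12935 genes). That is 7.29%, against a background of 21.3% of all genes tested, which split into 11.0% higher and 10.3% lower. At an unadjusted p under 0.05 there were 12 of the 96 higher and 10 lower, against 2278 higher and 2257 lower of all 12935 genes tested. Signs were mixed, with 42 positive and 54 negative log2 fold changes. In libraries of pooled oocytes, fewer cells that hold a transcript and less of it per cell cannot be told apart.

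The log2 fold changes (Lsd1 KO over Control) of the 96 genes ran from -0.90 to 0.82 and had a median of -0.08, beside -0.01 for all genes. The per-library median of these genes varied within a genotype by an SD of 0.12 in Lsd1 KO and 0.15 in Control on the log2 scale, so the median difference was inside the spread between libraries. The quartiles were -0.32 and 0.20, against -0.43 and 0.47 for all genes. In the main edgeR fit no tested gene reached 2-fold, while 18.6% of all genes did. In that fit 79 of 96 (82.3%) were within 1.5-fold, against 60.9%. The 95% confidence interval lay wholly within 2-fold for 64 genes (66.7%, against 42.6% of all genes), and for the others, among them all 7 called genes, it reached 2-fold in at least 1 direction. It lay within 1.5-fold for 18 of the 96. The 3 Lsd1 KO and 3 Control libraries did not overlap for 26 genes (27.1%), 12 of them higher and 14 lower, against 38.7% of all genes. The median exon length of the 96 was 1590 bases, and that of all tested genes 3683.

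**Figure D1:**
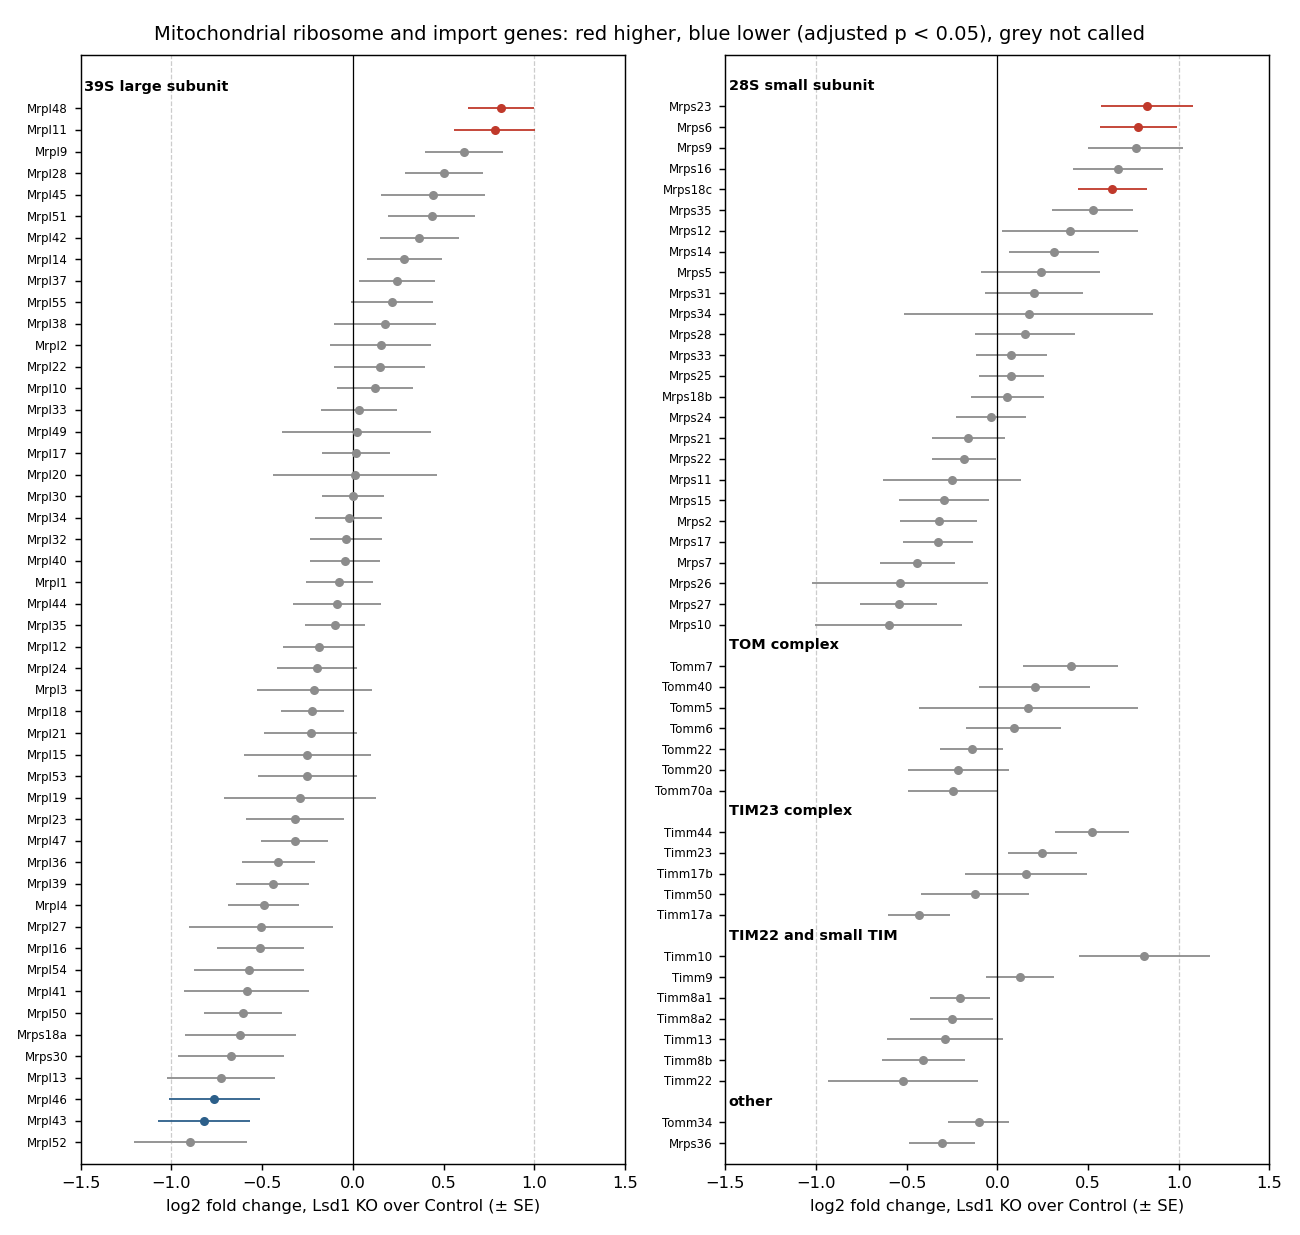
Log2 fold change of Lsd1 KO over Control (x axis, bars ± SE, n = 3 per genotype) for each of the 96 tested genes, grouped by the complex the protein belongs to. Red marks the 5 genes higher and blue the 2 lower at an adjusted p under 0.05, grey the rest; points lie between -0.90 and 0.82 and both signs occur in every complex with more than 2 genes.

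The large subunit held both genes that fell. Of its 49 genes (47 Mrpl genes with Mrps18a and Mrps30, which by structure belong to 39S) 2 rose and 2 fell. That is 8.16%, against 21.3% of all genes, and the median log2 fold change was -0.10. Mrpl48, a mitochondria-specific protein of the central protuberance, stood at 307, 259 and 345 CPM in Lsd1 KO replicates 1 to 3 and at 195, 152 and 172 CPM in Control. All 3 Lsd1 KO libraries lay above all 3 Control libraries. The difference was 0.82 ± 0.18 on the log2 scale (SE; edgeR adjusted p = 0.00807), and it passed the test with each of the 6 libraries left out in turn (largest adjusted p 0.0379). In the mm9 assembly Mrpl48 lies on chromosome 7 at 107694265-107756811 on the minus strand. Its exons share 708 bases with Rab6a on the opposite strand, which stood at 154 CPM in Lsd1 KO and 192 in Control (log2 fold change -0.33, adjusted p = 0.277), and 1865 bases with D630004N19Rik on its own strand, not analysed here. The labels used here do not say whether reads were assigned by strand, so reads from such shared exons cannot be told apart.

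Mrpl11, a homologue of the bacterial protein at the base of the ribosomal stalk, stood at 29.3, 31.8 and 28.7 CPM in Lsd1 KO and 21.3, 17.2 and 13.8 CPM in Control. The groups did not overlap, and Control varied more than Lsd1 KO. The log2 difference was 0.78 ± 0.22 (SE; edgeR adjusted p = 0.0258), but of the 6 fits that left out a library the call held in 1, without Control replicate 1 (adjusted p 0.0291, and up to 0.0720 in the others). Mrpl11 spans 4962315-4964943 on the plus strand of chromosome 19 (mm9, as for all genes below).

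Mrpl43, a mitochondria-specific subunit, was at 9.30, 11.1 and 13.2 CPM in Lsd1 KO and 17.1, 19.3 and 22.9 CPM in Control. The highest Lsd1 KO library lay below the lowest Control library. It fell by 0.82 on the log2 scale (SE 0.25; edgeR adjusted p = 0.0371), and the call held in 0 of the 6 fits that left out a library (adjusted p 0.0508 to 0.154). Mrpl43 (chromosome 19, 45079504-45080932, minus strand) starts head to head with Peo1, the older symbol of Twnk, which encodes the mitochondrial DNA helicase. Their exons overlap by 97 bases. Peo1 stood at 12.6 CPM in Lsd1 KO and 21.1 in Control, a log2 difference of -0.75 that did not pass the test (edgeR adjusted p = 0.107).

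Mrpl46, which like Mrpl48 sits in the central protuberance, was at 9.78, 14.2 and 11.0 CPM in Lsd1 KO and 22.4, 19.1 and 18.0 CPM in Control. The groups did not overlap, with Lsd1 KO replicate 2 nearest to Control. It fell by 0.76 (SE 0.25; edgeR adjusted p = 0.0471), and the call held in 2 of 6 fits without a library, those that left out replicate 2 of Lsd1 KO or replicate 3 of Control (largest adjusted p 0.189). Mrpl46 lies at 85920122-85928417 on the minus strand of chromosome 7, head to head with Mrps11 of the small subunit, and 173 exonic bases overlap. Mrps11 had a log2 fold change of -0.25 ± 0.38 (SE; edgeR adjusted p = 0.676).

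Among large-subunit genes that missed the threshold, Mrpl52, a mitochondria-specific subunit, had the most negative value of all 96. It stood at 14.8, 11.0 and 28.6 CPM in Lsd1 KO and at 36.6, 27.0 and 37.6 CPM in Control. Lsd1 KO replicate 3 lay above Control replicate 2, so the groups overlapped. Its log2 difference was -0.90 ± 0.31 (SE; edgeR adjusted p = 0.0597), and DESeq2 gave an adjusted p of 0.0261 and limma-voom 0.0353. Mrpl50, also absent from bacteria, was at 17.2, 17.1 and 21.5 CPM against 31.1, 24.3 and 29.5, without overlap (-0.61, adjusted p = 0.0623). Mrpl9, a bacterial homologue, was at 73.5, 70.7 and 71.4 CPM against 56.7, 52.1 and 32.3, also without overlap (0.61, adjusted p = 0.0613; DESeq2 0.0398, limma-voom 0.0494). The spread of Mrpl9 lay almost wholly in Control, where replicate 3 was the lowest. Mrpl4, a bacterial homologue, was at 43.3, 40.1 and 51.7 CPM in Lsd1 KO and 67.2, 51.9 and 70.9 CPM in Control, where the nearest libraries differed by little (-0.49, adjusted p = 0.0892). Mrpl13, another bacterial homologue, was at 14.7, 11.3 and 21.7 CPM against 35.5, 24.7 and 18.8, and the groups overlapped (-0.73, adjusted p = 0.101).

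Of the 26 genes of the small subunit 3 rose (11.5%, against 11.0% of all genes) and none fell in the main edgeR fit. The median log2 fold change was 0.08. At an unadjusted p under 0.05, 1 was lower, and DESeq2 and limma-voom called none lower. Under other settings of edgeR, Mrps7 and Mrps27 were lower with the length and GC correction described below (adjusted p = 0.0473 and 0.0383). Mrps27 was also lower without Control replicate 2 (0.0468). Mrps6, a bacterial homologue, was at 29.4, 27.2 and 26.6 CPM in Lsd1 KO and at 18.9, 15.1 and 14.5 CPM in Control. Each Lsd1 KO library lay above each Control library, and the difference was 0.78 ± 0.21 (SE; edgeR adjusted p = 0.0221). The call held in 4 of 6 fits without a library, but not without Lsd1 KO replicate 1 (adjusted p = 0.0801) or Control replicate 2 (0.0696). On chromosome 16, where Mrps6 spans 92058515-92112472 on the plus strand, it shares 696 exonic bases on the same strand with Slc5a3, a myo-inositol transporter. Slc5a3 moved the other way, with means of 5.64 CPM in Lsd1 KO and 18.7 in Control (log2 fold change -1.73 ± 0.32, SE, adjusted p = 0.00326). How the counting treated reads in the shared exon is not given, so the Mrps6 value is uncertain to that extent.

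Mrps18c was at 60.3, 48.5 and 65.8 CPM in Lsd1 KO and 37.9, 33.4 and 41.3 CPM in Control. Each Lsd1 KO library lay above each Control library. Its log2 difference was 0.63 ± 0.19 (SE; edgeR adjusted p = 0.0326), and the call held in 2 of 6 fits without a library, those that left out replicate 2 of Lsd1 KO or replicate 3 of Control (largest adjusted p 0.109). Mrps18c (chromosome 5, 101227646-101233490, plus strand) begins 27 bases from Helq, a DNA helicase gene on the other strand, which did not pass the test (0.10 ± 0.18, SE, adjusted p = 0.727).

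Mrps23, a mitochondria-specific subunit, was at 31.6, 29.0 and 39.4 CPM in Lsd1 KO and 20.9, 23.1 and 12.5 CPM in Control. The groups did not overlap, and Control replicate 3 lay lowest. Its log2 difference was 0.82 ± 0.25 (SE; edgeR adjusted p = 0.0355), and the call held in 2 of 6 fits without a library, those without replicate 2 of either genotype (adjusted p up to 0.127). Mrps23 spans 88017890-88025009 on the plus strand of chromosome 11.

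Mrps9 and Mrps16, both bacterial homologues, missed the threshold with libraries that did not overlap. Mrps9 was at 13.6, 21.3 and 19.4 CPM in Lsd1 KO and 11.7, 10.6 and 9.76 CPM in Control (0.76, adjusted p = 0.0580; DESeq2 0.0394). Mrps16 was at 19.8, 18.8 and 26.5 CPM against 15.8, 11.8 and 13.5 (0.67, adjusted p = 0.0729). Mrps27, a mitochondria-specific subunit with an RNA-binding repeat fold, was at 38.9, 43.6 and 37.3 CPM against 58.1, 43.2 and 73.2. Lsd1 KO replicate 2 lay just above Control replicate 2, and the log2 difference was -0.54 (edgeR adjusted p = 0.0872).

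**Figure D2:**
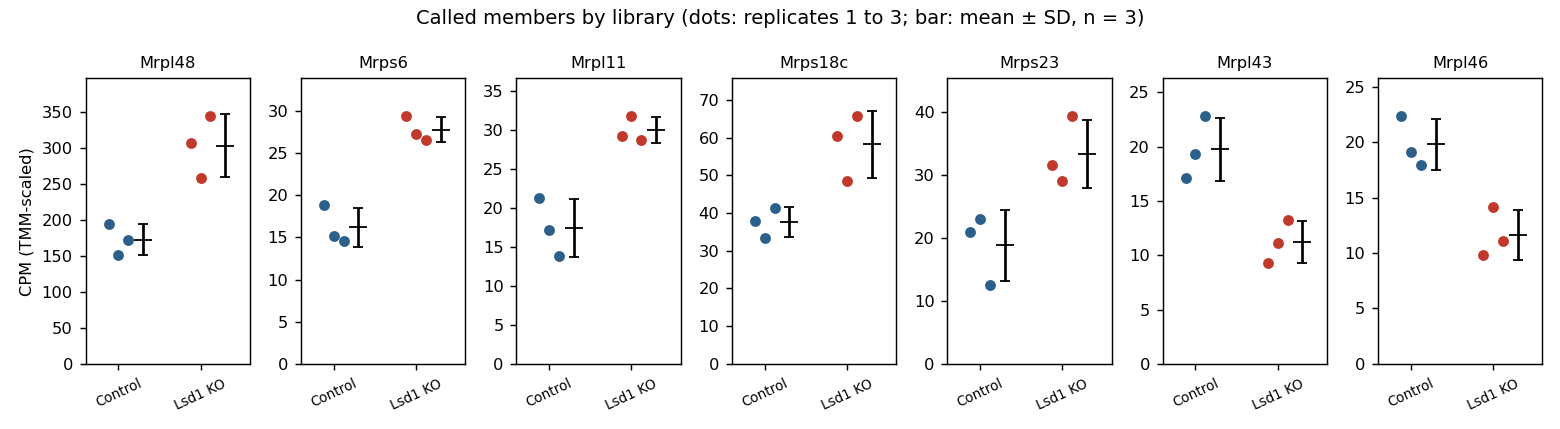
Level in CPM (y axis, linear from 0) of the 7 genes past the threshold, one dot per library, with bars for the mean ± SD (n = 3). In all 7 the libraries of the genotypes do not overlap, and Mrpl48 ranges from 152 to 195 CPM in Control and from 259 to 345 CPM in Lsd1 KO.

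Calls were made among subunits of both evolutionary origins. Of 47 subunits with a bacterial homologue 3 rose and none fell in the main edgeR fit (6.38%, against 21.3% of all genes), with a median of -0.08. At an unadjusted p under 0.05 the counts were 7 and 2, and DESeq2 and limma-voom called none lower. Under other settings of edgeR, Mrpl4, Mrpl16, Mrpl36 and Mrps7 were lower with the length and GC correction described below. Mrpl13 was lower without Control replicate 3 (edgeR adjusted p = 0.0452). Of 28 mitochondria-specific subunits 2 rose and 2 fell (14.3%), with a median of -0.01. With the length and GC correction Mrpl43, Mrpl46, Mrpl52, Mrps27 and Mrps30 of this class were lower. The difference between these classes was not tested.

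None of 12 Timm genes and none of 8 tested Tomm genes passed the edgeR test, and DESeq2 and limma-voom called none of them. Under other settings of edgeR, Timm44 was higher with a filter of 10 CPM (adjusted p = 0.0470), and Timm17a and Timm8b were lower with the length and GC correction described below (0.0237 and 0.0388). At an unadjusted p under 0.05 there were 2 Timm genes higher, 1 lower, and no Tomm gene. In the outer membrane the 3 receptors stood close between genotypes: Tomm20 at 17.6, 25.2 and 34.4 CPM in Lsd1 KO and 34.4, 34.7 and 20.3 CPM in Control. The range of Lsd1 KO nearly covered that of Control (log2 fold change -0.21). Tomm22 was at 89.2, 83.9 and 107 CPM against 97.0, 111 and 101 (-0.14), and Tomm70a had a log2 fold change of -0.24. Tomm40, the channel, was at 9.62, 13.9 and 9.79 CPM against 8.97, 7.46 and 12.5, with overlapping libraries (0.21). The small subunits Tomm5, Tomm6 and Tomm7 had log2 fold changes of 0.17, 0.09 and 0.41.

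Libraries did not overlap for 2 of the 5 genes of the TIM23 complex, a share near the 38.7% of all genes. These 2 differed in opposite directions, and neither passed the test. Timm44, which tethers the mitochondrial Hsp70 motor to the channel, was at 25.4, 32.0 and 30.3 CPM in Lsd1 KO and 19.6, 19.3 and 22.2 CPM in Control (0.52, edgeR adjusted p = 0.0869). Timm17a, a channel subunit, was at 154, 118 and 139 CPM against 197, 167 and 190 (-0.43, adjusted p = 0.0952). Its paralog Timm17b was at 10.2, 9.20 and 13.9 CPM against 12.5, 11.4 and 5.96, with overlapping libraries (0.16). The channel gene Timm23 and the receptor gene Timm50 had log2 fold changes of 0.25 and -0.12.

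Among the small chaperones of the TIM22 pathway, Timm9 was the most abundant Timm or Tomm gene per kilobase of exon, at 236 CPM per kilobase in Lsd1 KO and 217 in Control. Its libraries stood at 231, 226 and 266 CPM against 268, 217 and 178 and overlapped (0.12). Timm10, its partner in the hexameric chaperone, was at 12.8, 12.8 and 18.2 CPM against 10.5, 10.4 and 4.07. The groups did not overlap, Control replicate 3 lay lowest, and the difference did not pass the test (0.81 ± 0.36, SE, edgeR adjusted p = 0.131). Timm8a1 was at 89.3, 79.7 and 96.1 CPM against 96.2, 106 and 103, with the highest Lsd1 KO library just under the lowest Control library (-0.20). Timm8a2 was at 38.2, 34.3 and 46.5 CPM against 50.7, 33.2 and 57.8 and overlapped (-0.25). Timm8b was at 43.4, 51.6 and 69.8 CPM against 92.1, 68.1 and 58.4 and overlapped (-0.41). All 3 Timm8 genes had negative values and none passed the test.

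Several of these genes belong to small families, in some of which 1 copy held most of the transcript. Per kilobase of exon Timm17a stood at 87.0 CPM in Lsd1 KO and 117 in Control, and Timm17b at 4.34 and 3.89. Tomm20 stood at 18.2 and 21.1 CPM per kilobase, while its relative Tomm20l was at 0 in all 3 Lsd1 KO libraries and reached at most 0.185 CPM in Control. Tomm40l ranged from 0.0753 to 0.321 CPM over the 6 libraries. Both were below the filter and not tested. In the Mrps18 family, whose 3 proteins occupy different places in the ribosome, Mrps18a was at 8.74, 7.85 and 14.9 CPM in Lsd1 KO and 19.2, 15.5 and 13.6 CPM in Control. Mrps18b was at 30.0, 29.0 and 29.7 CPM against 34.1, 23.6 and 27.7. Their libraries overlapped and neither passed the test (-0.62 and 0.06), while Mrps18c passed it, as given above; whether the 3 differ from one another was not tested.

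**Figure D3:**
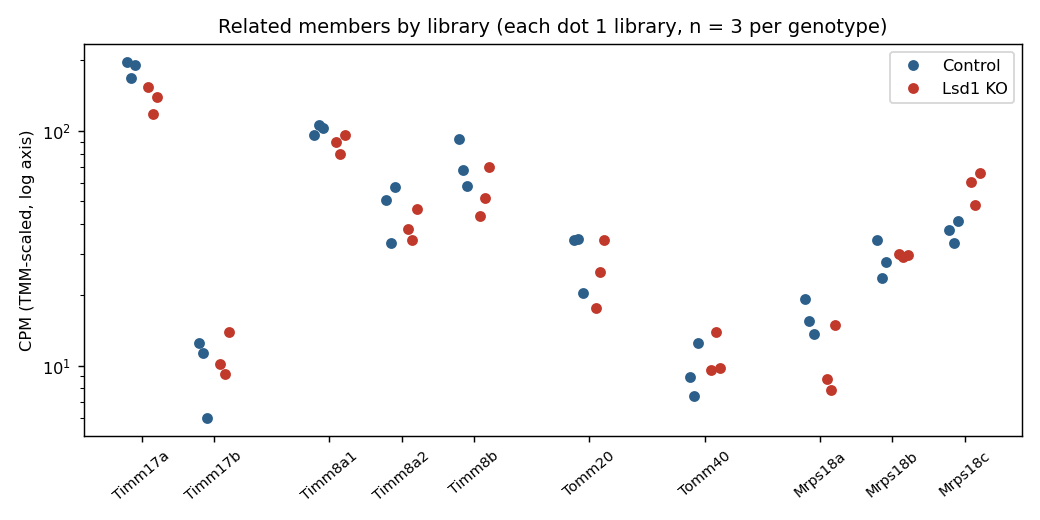
Level in CPM (y axis, log scale) of the tested genes of 5 small families, one dot per library. Timm17a ranges from 118 to 197 CPM and Timm17b from 5.96 to 13.9 CPM over the 6 libraries, and of the 10 genes only Mrps18c, higher in Lsd1 KO, passed the test.

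The most abundant genes of the other families had overlapping libraries. Mrps33, a mitochondria-specific small-subunit protein, was the most abundant of all per kilobase of exon (458 CPM per kilobase in Lsd1 KO and 434 in Control). Its libraries stood at 533, 524 and 641 CPM in Lsd1 KO and 643, 411 and 556 CPM in Control (log2 fold change 0.08). Mrpl34 led the large subunit at 169 and 172 CPM per kilobase, with 110, 93.2 and 123 CPM against 111, 93.0 and 128 (-0.02). Tomm22 led the outer membrane genes at 83.9 and 92.5 CPM per kilobase.

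Beyond the named families, genes that serve the mitochondrial ribosome without a subunit symbol were called in both directions, at shares below the 21.3% of all genes. None of 7 ribosomal proteins known under other symbols passed the edgeR test (0 higher and 1 lower at an unadjusted p under 0.05; 0 by DESeq2 and limma-voom), with a median of -0.09. Of 18 translation factors and RNA-binding proteins 2 rose (11.1%) and none fell (2 and 0 at an unadjusted p under 0.05, and by DESeq2 and limma-voom). They were Lrpprc (0.92 ± 0.26, SE, adjusted p = 0.0245) and 1810035L17Rik, the older symbol of Slirp (0.79 ± 0.25, SE, adjusted p = 0.0386). These encode the partners of a complex that stabilises mitochondrial mRNAs. Lrpprc stood at 130, 188 and 142 CPM in Lsd1 KO and at 67.8, 56.7 and 118 CPM in Control. Slirp stood at 43.9, 38.5 and 49.3 CPM against 27.6, 16.4 and 32.4. For both, every Lsd1 KO library lay above every Control library, and Control replicate 3 came nearest.

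Of 22 factors that modify ribosomal RNA or assemble the subunits, 1 rose and 3 fell (18.2%), and the median was 0.12. Nsun4, an RNA methyltransferase that acts in assembly, was at 190, 187 and 173 CPM in Lsd1 KO and 111, 120 and 105 CPM in Control (0.71 ± 0.16, SE, edgeR adjusted p = 0.00892). Tfb1m, which dimethylates the small-subunit RNA, was at 17.6, 23.4 and 18.0 CPM against 44.2, 38.9 and 29.2 (-0.93 ± 0.22, SE, adjusted p = 0.0119). Eral1, a GTPase that binds the same RNA, was at 5.85, 8.39 and 7.81 CPM against 14.7, 16.6 and 14.9 (-1.07 ± 0.27, SE, adjusted p = 0.0163). In all 3 the genotypes did not overlap. The third gene that fell was Mterfd1, named after its value was seen (-0.70, adjusted p = 0.0372).

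Among 26 import genes with other names 1 rose and 2 fell (11.5%), with a median of -0.13. Mtx3, a metaxin of the outer membrane, was at 4.01, 3.43 and 5.75 CPM in Lsd1 KO and 8.05, 13.2 and 10.2 CPM in Control (-1.25 ± 0.34, SE, edgeR adjusted p = 0.0220). Grpel1, the nucleotide exchange factor of mitochondrial Hsp70, had a log2 fold change of -0.59 (adjusted p = 0.0466). Dnajc19, the J-protein of the import motor, was at 0.69 (adjusted p = 0.0494). Of 10 genes that transcribe or maintain mitochondrial DNA 1 rose (10%) and none fell by edgeR, while 3 were lower at an unadjusted p under 0.05 and the median was -0.50. DESeq2 called 1 higher and 1 lower, limma-voom 0 and 1. The gene that rose was 8430406I07Rik, the older symbol of the nuclease Mgme1. It stood at 11.9, 5.41 and 19.8 CPM against 5.09, 3.47 and 3.88 (1.58 ± 0.43, SE, adjusted p = 0.0220). Lsd1 KO varied more than Control, and its replicate 2 lay just above the highest Control library.

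Compared with other large sets of short housekeeping transcripts, the mitochondrial ribosome and import genes gave about the same share of calls as the ribosomal proteins of the cytosol. Of 90 cytosolic ribosomal protein genes tested 5 rose and 2 fell (7.78%), with a median log2 fold change of -0.07. Of 84 subunits of oxidative phosphorylation 11 rose and 3 fell (16.7%), with a median of 0.11. Both shares lay under the 21.3% of all genes, and differences among the 3 sets were not tested.

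**Figure D4:**
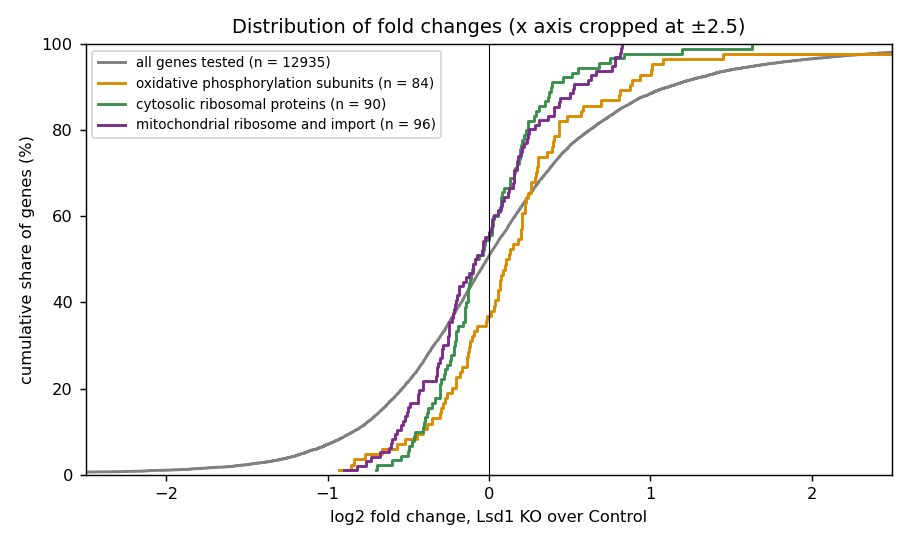
Cumulative share of genes in percent (y axis) by log2 fold change of Lsd1 KO over Control (x axis, cropped at ±2.5) for the 96 mitochondrial ribosome and import genes, 90 cytosolic ribosomal proteins, 84 oxidative phosphorylation subunits and all 12935 genes tested. The mitochondrial ribosome curve is steeper than that of all genes (quartiles -0.32 and 0.20 against -0.43 and 0.47) and close to that of the cytosolic ribosomal proteins.

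Within each genotype 1 library stood highest for more than 50% of these genes. Of the 96, 56 were highest in replicate 3 among the Lsd1 KO libraries, and 56 were highest in replicate 1 among the Control libraries. The median deviation from the genotype mean was 0.12 in the first of these libraries and 0.17 in the second (log2 of CPM with a prior count of 2). The cytosolic ribosomal proteins deviated the same way and further, at 0.24 and 0.28, with 82 and 73 of 90 highest in those libraries. The 3127 genes with the shortest exons deviated by 0.08 and 0.11, and all genes by 0.01 and -0.01. The part of exon length in these deviations was not tested.

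**Figure D5:**
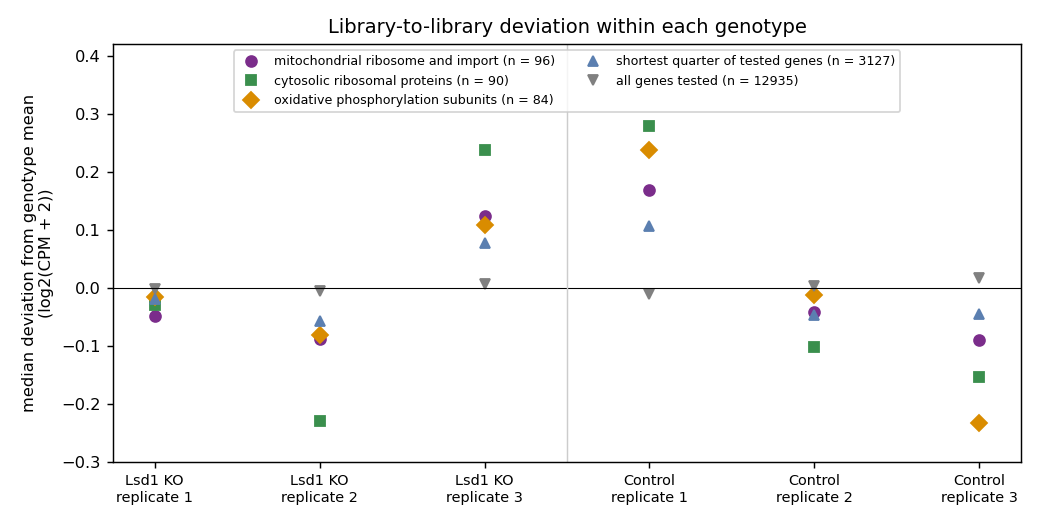
Median deviation of a library from the mean of its genotype (y axis, log2 of CPM plus a prior count of 2) for 5 gene sets in each of the 6 libraries (x axis). Lsd1 KO replicate 3 and Control replicate 1 lie highest for the mitochondrial ribosome and import genes, at 0.12 and 0.17.

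Exon length also moved with genotype. Over all genes the median log2 fold change fell from 0.13 in the 3127 shortest genes (39 to 2274 bases) to -0.13 in the 3126 longest. Of the 96 genes 63 lie among those shortest, where their own median was -0.09. With a per-library correction for exon length and GC content the calls among the 96 were 2 higher and 11 lower, in place of 5 and 2. Over all 12935 genes the same correction called 1448 higher and 1330 lower (21.5%). The median of the 96 was then -0.17. Mrpl48 and Mrps6 stayed higher and Mrpl43 and Mrpl46 lower. The other 9 then lower were Mrpl4, Mrpl16, Mrpl36, Mrpl52, Mrps7, Mrps27, Mrps30, Timm8b and Timm17a. With the replicate number also in the fit, 1 gene was higher (Mrpl48) and 3 were lower (Mrpl43, Mrpl46 and Mrpl52). Over all genes that fit called 1209 higher and 993 lower.

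With the summed immune marker level as a covariate, 0 of these genes were called higher by edgeR (8 at an unadjusted p under 0.05) and 1, Mrpl52, was lower (-1.44, adjusted p = 0.0258), and calls over all genes fell to 675 higher and 502 lower. The estimates of the 5 higher genes were then 0.87 for Mrpl11, 0.88 for Mrps23, 0.74 for Mrps6, 0.62 for Mrpl48 (adjusted p = 0.0961) and 0.40 for Mrps18c. Those of the 2 lower genes were -0.84 for Mrpl43 and -0.58 for Mrpl46. The part of the granulosa and theca markers in these values was not tested.

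Many of the genes lie close to other genes. Of the 98, 30 have a protein-coding partner starting head to head in the files, and of the 26 partners tested 1 was higher and 5 were lower by edgeR (23.1%, against 21.3% of all genes). Named after their values were seen, they were Pqbp1 (partner of Timm17b, 1.12), and Mrpl46, Ppp1r10 (of Mrps18b, -0.78), Ptcd2 (of Mrps27, -0.74), Zfp661 (of Mrps5, -2.59) and Parg (of Timm23, -0.57), each with its log2 fold change. Exons of 29 genes overlap those of another gene in the files, 25 on the opposite strand. Among genes with a RefSeq window, ETS matches were found before 3 of the 7 that passed the expression test and 21 of the 79 tested genes that did not, and NRF1 matches before 0 of 7 and 10 of 79. Printed above, the matches of Mrpl43 precede a gene that fell, while those of Mrps18c and Mrpl48 precede genes that rose.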

How the data were processed

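Gene counts were deposited by the authors as 1 column of whole numbers per sample. Tools named in the submitters' processing notes are HTSeq 0.5.3p9, TopHat2 2.0.7 and CASAVA 1.8.2, with mm9; the annotation and strand setting are not given there. Samples were grouped by labelled genotype, taken as independent. Genes passing filterByExpr (minimum count 10) were tested with edgeR 4.0.16 in R 4.3.3 (TMM, quasi-likelihood F test, two-sided, Benjamini-Hochberg adjustment over 12935 genes); all adjusted p-values are edgeR's unless another tool is named. Total counts ran from 10735422 to 13035045, replicate pairs differed by 21.2 to 47.1 in chi-square per degree of freedom, and the biological coefficient of variation was 27.2%. GENCODE M1 on NCBIM37, the mm9 assembly, gave positions, GC content and lengths; 300-base RefSeq promoter windows came from GRCm38.p6, whose coordinates were not mixed with the former. Tables and figures used Python 3.11.15 and pandas 2.3.3.

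The members and lists were chosen with earlier results of these data known. Named were all members past the threshold, the 8 positive and 8 negative members with the smallest adjusted p, small families, the most abundant member per exon length of each family, and up to 3 called genes per list. Timm44 and Timm10 were also given by library, outside these rules and with their values known. Alternatives were other scalings, DESeq2 1.42.0, limma-voom (limma 3.58.1), filters, a replicate block, a length and GC correction (loess, span 0.5), an immune marker covariate and each library left out. The fits were first tried on simulated data with known answers.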

Additional observations from a re-analysis of the deposited data

How the results depend on the processing

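The main counts were 5 of 96 genes higher and 2 lower. The higher count was 8 with a filter of 10 CPM in 3 libraries, 2 with the length and GC correction, 1 with that correction and the replicate block (and 3 lower), and 0 with the immune marker covariate (edgeR in each; 8 at an unadjusted p under 0.05 in the last). The lower count was 1 with upper-quartile scaling, library totals, the 10 CPM filter, the replicate block or the immune covariate, and 11 with the length and GC correction. Leaving out 1 library gave 2 to 4 higher and 0 to 2 lower. The lowest higher count, 2, came without replicate 1 or 3 of Lsd1 KO or replicate 2 of Control, and the lower count of 0 without Lsd1 KO replicate 1 or Control replicate 1. DESeq2 called 7 and 3, limma-voom 6 and 3. Over all genes, 1421 higher and 1329 lower became 675 and 502 with the immune covariate, and 932 to 1466 and 638 to 1346 with a library left out, the smallest being 638 lower without Lsd1 KO replicate 1, 727 without Lsd1 KO replicate 3, 781 without Control replicate 2, and 932 higher without Control replicate 1. The median log2 fold change moved by less than the spread between libraries in every setting. Signs of several genes near 0 turned, among them Mrps18b, Timm17b, Tomm20 and Tomm40. Mrps18b was at -0.074 with the length and GC correction, -0.067 with that and the replicate block, and -0.031 with the immune covariate. With a library left out, Mrps18b ranged from -0.052 to 0.18 and Timm17b from -0.12 to 0.33. Tomm20 then ranged from -0.45 to 0.021 and Tomm40 from -0.011 to 0.42. These turns with a library left out came without Control replicate 2 for Mrps18b and Lsd1 KO replicate 1 for Tomm20. They came without Lsd1 KO replicate 3 or Control replicate 3 for Timm17b and Lsd1 KO replicate 2 for Tomm40. The length and GC correction also turned other signs, such as those of Timm9 (0.12 to -0.005) and Tomm6 (0.09 to -0.12). Further examples were Mrpl10 (0.12 to -0.04) and Mrpl1 (-0.08 to 0.05). The cause of these changes was not tested. Same-numbered samples correlated in their deviations at -0.03, 0.11 and -0.02, so the numbers were not taken to pair them, and not every sample correlated best with its own number (0.13 for Lsd1 KO replicate 3 and Control replicate 1). With the replicate block 4 genes were higher and 1 lower: Mrps23 (adjusted p = 0.0502), Mrpl43 (0.0514) and Mrpl46 (0.0766) were lost, and the gene called lower was Mrpl52 (0.0184). The counts were 1270 and 1098 over all genes. With 3 libraries per genotype and a median standard error of 0.23, changes of 2-fold or less could be missed. In the simulated data edgeR called 42 of 100 genes changed by 1 on the log2 scale, and 84 of 100 changed by 2. Far fewer genes were changed there than were called here, so these shares are not those of the 96 genes.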
